A study of Mus musculus with 22 samples.

Results

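The collagen genes measured here were all mouse genes whose symbol has the form of a collagen chain, Col with a type number, the letter a and a chain number. They were 44 of the 19938 genes that the arrays measured with a single gene symbol, and the 44 collagen symbols of RefSeq's mouse gene table were all among them. Of these, 9 encode chains of the fibrillar types I, II, III, V and XI, 8 encode chains of the basement membrane types IV, XV and XVIII, and 27 encode chains of other types. Col24a1 and Col27a1, whose types are also counted as fibrillar, were kept among the other types here. Each gene was read from 1 probe set, the one with the highest mean over all arrays, and for Col6a5 and Col6a6 a second probe set was left out.

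RNA of 22 mouse pluripotent cell samples was measured on Affymetrix mouse gene arrays, 1 array per sample. Embryonic germ (EG) lines, which come from the primordial germ cells of embryos, had been derived from embryos at E8.5 in 3 ways. The EG FCS group (n = 4, 1 female) was derived in medium with fetal calf serum (FCS) and leukaemia inhibitory factor (LIF) on a layer of mouse embryonic fibroblasts, the feeder cells. The EG 2is group (n = 4, 2 female) spent 48 hours in that culture and then went into 2i, and the EG 2i group (n = 4, 3 female) was derived directly in 2i. Embryonic stem (ES) lines, which come from embryos before implantation, were grown in FCS (n = 5, 2 female) or in 2i (n = 5, 2 female). Per the labels, 2i was N2B27 medium with LIF and 2 inhibitors, PD0325901 against MEK and CHIR99021 against GSK3, and cells in 2i lay on laminin without feeders. Medium, serum and feeder layer therefore changed together and cannot be told apart. All groups carry the same strain label, 129SvEv x Oct4-delta-PE-GFP transgenic on a mixed background, and the series text calls the embryos genetically identical. The ES lines had also been switched between cultures once established, and the labels do not say if samples with one number share a line. Below, a line number is only the number in the sample's title. All 10 ES arrays carry the cell-type label EGCs, while their titles and source names say ES, and the titles were followed here. No label ties a sample to a culture of its own, so p-values reflect only how far these samples differ among themselves, which may be technical.

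Collagens are proteins of 3 chains wound into a triple helix. Fibrillar collagens are secreted as procollagens, trimmed at both ends and packed into cross-linked fibrils, and fibroblasts are their best-known source. Type IV collagen forms the network of basement membranes together with laminin, nidogen and perlecan, and type XVIII is a heparan sulphate proteoglycan of basement membranes whose end fragment is endostatin. In the early mouse embryo the endoderm lays down much of the first basement membrane. Collagen chains are hydroxylated and folded in the endoplasmic reticulum before export, and integrins and discoidin domain receptors bind them at the cell surface.

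All values are log2 expression values from robust multi-array averaging (RMA), so a difference of 1 is a 2-fold change, and the level of one probe set was not set against that of another. Values over all probe sets ran from 3.63 to 13.9, array medians from 5.54 to 5.62, and arrays of one group correlated at 0.982 to 0.998 over all probe sets. No 2 arrays were identical. Differences and their standard errors (SE) come from a limma fit over all 22 arrays and all 19938 genes, with terms for group, labelled batch and labelled sex, and genes with an adjusted p (Benjamini-Hochberg) under 0.05 were called. Pluripotency markers lay at a mean of 10.962 to 11.245 in every array. The mean of 19 feeder fibroblast markers lay at 5.77 to 6.39 in EG FCS, 5.81 to 6.33 in ES FCS and 5.31 to 5.60 over the 2i and 2is arrays. No array of the 2i or 2is groups reached the lowest FCS array. Of these markers, Acta2, smooth muscle actin, differed most. It had a mean of 9.52 in EG FCS and 9.19 in ES FCS against 5.01 to 5.14 in the 2i and 2is groups. Tagln differed next most, with means of 6.82 in EG FCS and 6.85 in ES FCS against 4.58 to 4.64. Much of the gap in the mean of the 19 markers came from these 2 genes. The list did not fall as a whole. Fbln1 was called higher in 2i or 2is than in FCS in each comparison, with means of 7.86 in EG FCS and 7.92 in ES FCS against 8.42 to 8.86. Timp1 and Pdgfrb also had higher means in the 2i and 2is groups. As a rough measure of background, the Y-linked Eif2s3y reached at most 4.88 in a female array, and 3 of the 19 feeder markers in EG FCS, 2 in ES FCS and 5 to 9 in the 2i and 2is groups had means below that. The mean of 12 endoderm markers lay at 6.003 to 6.735 in EG FCS, 5.64 to 5.94 in ES FCS and 5.27 to 5.76 over the 2i and 2is arrays.

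In EG lines, collagen genes were lower in 2i than in FCS more often than higher. Of the 44 genes, 11 were called lower and 3 higher, where 12.5% of all genes were called lower, 11.4% higher and 23.9% in either direction. The share of collagens called in either direction, 31.8%, lay close to that of all genes, and the median difference of all 44 was −0.05 against 0.01 over all genes. After a start in FCS (2is), 12 were lower and 0 higher, where 12.9% of all genes were lower, 12.7% higher and 25.6% either. In ES lines, 13 were lower and 1 higher in 2i, where 14.9% of all genes were lower, 16.6% higher and 31.6% either. The comparisons of EG 2i and EG 2is share the EG FCS arrays. Most collagens did not move much: the group means of 31 of the 44 spanned less than 0.3. When the EG FCS and EG 2i arrays were fitted alone, 6 collagens were called in place of 14, and all 6 were among the 14. In 12 collagens every EG 2i array lay below every EG FCS array, as in 12.8% of all genes. The same held for 17 collagens in EG 2is (12.3% of all genes) and for 9 in ES 2i (10.6%).

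In the fibrillar class as split here, 4 of 9 genes were called lower in EG 2i, 5 of 9 in EG 2is and 6 of 9 in ES 2i, with none called higher. Col24a1 and Col27a1, kept among the other types, were not called, so a ranking of the classes depends on this split. In the basement membrane class 3 of 8, 3 of 8 and 2 of 8 were lower, again with none higher. Among the 27 other collagens 4, 4 and 5 were lower and 3, 0 and 1 higher. The 9 genes called lower in all 3 culture comparisons were Col1a1, Col1a2, Col3a1, Col5a2, Col4a1, Col18a1, Col6a2, Col6a3 and Col12a1. The share of all genes called lower in all 3 was not computed, so this list is not a result about collagens as a set. In bulk samples of this kind, fewer cells of a type and less RNA per cell cannot be told apart. Feeder markers moved in the same comparisons, with 7 of 19 called lower and 1 higher in EG 2i. The counts were 10 and 1 in EG 2is, and 11 and 2 in ES 2i. The shares of the list called were 42.1%, 57.9% and 68.4%, against 23.9%, 25.6% and 31.6% of all genes. The part of feeder markers in the collagen counts was not tested.

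**Figure D1:**
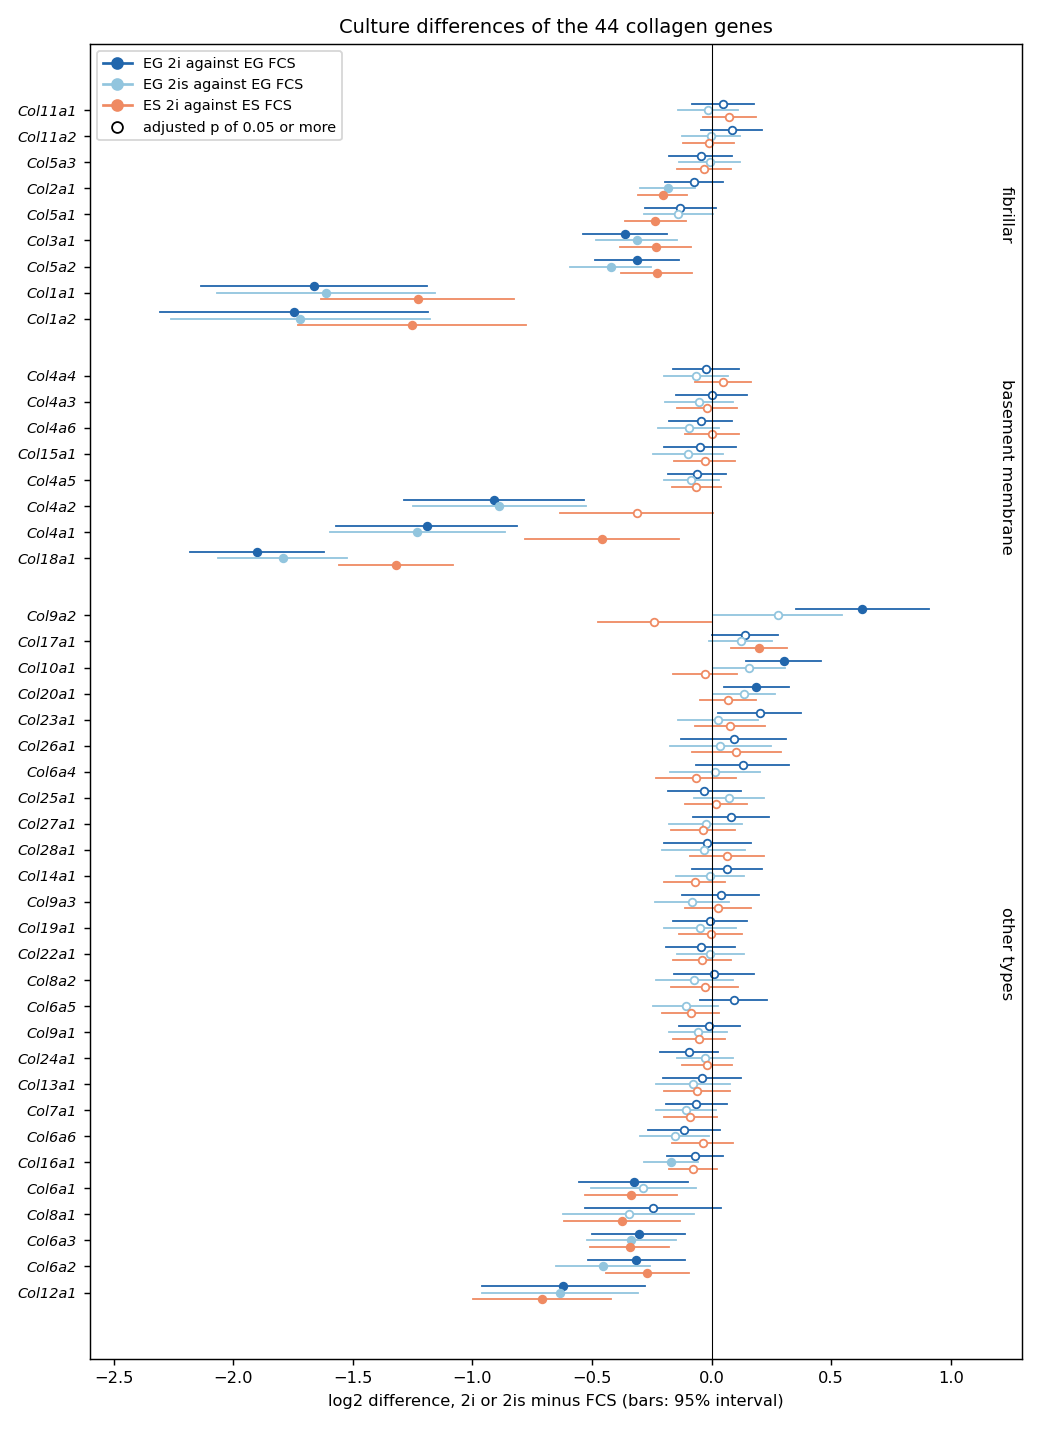
Log2 difference of each of the 44 collagen genes between culture groups (horizontal axis, 2i or 2is minus FCS, bars are 95% intervals), with genes in rows by class and open points for adjusted p of 0.05 or more. Col1a1, Col1a2, Col4a1, Col4a2 and Col18a1 lie farthest to the left, down to −1.90, most other genes sit near 0, and Col9a2 in EG 2i lies farthest to the right at 0.63.

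Col1a1 and Col1a2 encode the chains of type I collagen, the main fibrillar collagen of bone, skin and tendon. In EG FCS lines 1 to 4 the Col1a1 values were 7.03, 6.37, 7.20 and 7.63. In EG 2is they were 5.36, 5.58, 5.45 and 5.53, and in EG 2i 5.31, 5.50, 5.46 and 5.60. The lowest FCS array stood well above the highest 2i or 2is array, and the FCS arrays spread over more than a unit while those without feeders nearly coincided. In ES FCS lines 1 to 5 Col1a1 was at 7.55, 6.33, 6.97, 6.51 and 6.54, and in ES 2i at 5.56, 5.55, 5.47, 5.61 and 5.56. Line 1 was the highest of the ES FCS arrays, and again no 2i array reached any FCS array. Col1a1 fell in each comparison, with a difference of −1.66 in EG 2i (SE 0.23, adjusted p = 2.6e-05, 3.17-fold), −1.61 in EG 2is (SE 0.22, adjusted p = 1.72e-05) and −1.23 in ES 2i (SE 0.19, adjusted p = 5.73e-05, 2.34-fold).

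Col1a2 followed the same arrays. It was at 6.49, 5.99, 6.73 and 7.40 in EG FCS lines 1 to 4, and at 7.37, 6.03, 6.53, 6.23 and 6.12 in ES FCS lines 1 to 5. EG FCS line 4 and ES FCS line 1 were highest for both chains, and EG FCS line 2 and ES FCS line 2 were lowest. Without feeders Col1a2 lay between 4.77 and 5.17 in EG 2i, 4.81 and 5.10 in EG 2is, and 5.04 and 5.38 in ES 2i. It fell as well, with differences of −1.75 in EG 2i (SE 0.27, adjusted p = 8.49e-05, 3.35-fold), −1.72 in EG 2is (SE 0.26, adjusted p = 5.3e-05) and −1.25 in ES 2i (SE 0.23, adjusted p = 0.000255, 2.38-fold). The ES lines were run in 2 labelled batches, and within batch 1 (2 lines per culture) the differences were −1.38 for Col1a1 and −1.62 for Col1a2, within batch 2 (3 lines per culture) −1.13 and −1.01, each passing the test.

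The RefSeq promoter table (GRCm38.p6) held 35 of the 44 collagens. The 250 bases before the start of Col1a2 are shown because it is the type I chain with an entry there, with 3 motifs in capitals, searched on both strands: the CCAAT box, the Sp1-type GC box GGGCGG and the TATA box read as TATAAA. The window lies at chr6:4505368-4505617 on the plus strand and holds GGGCGG at 2 places and CCAAT at 1.
Col1a2: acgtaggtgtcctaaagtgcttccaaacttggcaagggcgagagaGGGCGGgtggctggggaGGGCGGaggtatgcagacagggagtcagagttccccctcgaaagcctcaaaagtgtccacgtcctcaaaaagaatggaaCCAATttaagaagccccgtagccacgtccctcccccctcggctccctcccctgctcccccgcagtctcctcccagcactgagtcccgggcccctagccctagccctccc

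Counted over the 250 bases before each start, CCAAT stood in 13 of 38 collagen windows, 34.2%, against 33.8% of the table's 32851 windows. GGGCGG stood in 22 of 38, 57.9%, against 32.7%, and TATAAA in 5 of 38, 13.2%, against 12.4%. A GC box on the opposite strand can overlap a CCAAT box by its last bases. Among the 6 of the 9 commonly lower collagens that the table holds, 3 had CCAAT, 3 had GGGCGG and 1 had TATAAA. These counts describe letters, and nothing about binding was measured.

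The other fibrillar genes moved by far less than type I. Col3a1, the chain of type III collagen of skin and vessels, was at 5.44, 5.53, 5.57 and 5.66 in EG FCS lines 1 to 4 against 5.12, 4.89, 5.08 and 5.43 in EG 2i. The highest 2i array stayed just under the lowest FCS array. Col3a1 fell in all 3 comparisons, by differences of −0.36 (SE 0.08, adjusted p = 0.00338) in EG 2i, −0.31 (SE 0.08, adjusted p = 0.00651) in EG 2is and −0.23 (SE 0.07, adjusted p = 0.0162) in ES 2i. Col5a2, a chain of type V collagen, which sits inside type I fibrils and limits their width, was at 4.89 to 5.28 in EG FCS, 4.72 to 4.88 in EG 2i, 4.95 to 5.23 in ES FCS and 4.77 to 4.97 in ES 2i. The ES groups overlapped, and the 2i and 2is means of Col5a2, 4.71 to 4.84, lay below the rough background mark of 4.88. Col5a2 fell too, with differences of −0.31 (adjusted p = 0.0099), −0.42 (adjusted p = 0.000637) and −0.23 (adjusted p = 0.0176) in the 3 comparisons.

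For these smaller differences the call depended on the arrays used. In EG 2i the adjusted p of Col3a1 was 0.0795 and of Col5a2 0.118 when only those arrays were fitted, and within ES batch 1 Col3a1 was at −0.13 (adjusted p = 0.565) and Col5a2 at −0.23 (adjusted p = 0.285). In ES lines Col3a1 also lost its call without ES FCS line 5 or ES 2i line 4, and Col5a2 without ES FCS line 1 or 3 or ES 2i line 1, with adjusted p of 0.0551 to 0.0658, and with the sample number as a block Col3a1 (0.188) and Col5a2 (0.0767) lost theirs in EG 2i and Col5a2 (0.0612) in ES 2i. Col5a1, the other main chain of type V, was called in ES lines alone, where it fell by 0.24 (SE 0.06, adjusted p = 0.00515). Its differences in EG 2i, −0.13 (95% interval −0.28 to 0.02), and EG 2is, −0.14 (−0.28 to 0.01), were not called, and the ES call was lost within each batch (adjusted p of 0.0687 and 0.0983). Col2a1, the cartilage collagen, fell slightly in EG 2is (−0.18, adjusted p = 0.0186) and in ES 2i (−0.20, adjusted p = 0.00291), a call lost under 6 of 19 alternatives in EG 2is, among them leaving out EG FCS line 1 or 4 or EG 2is line 1, and within ES batch 1 (adjusted p = 0.177). Col5a3, Col11a1 and Col11a2 were called in none of the 3 comparisons, with differences from −0.05 to 0.08.

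**Figure D2:**
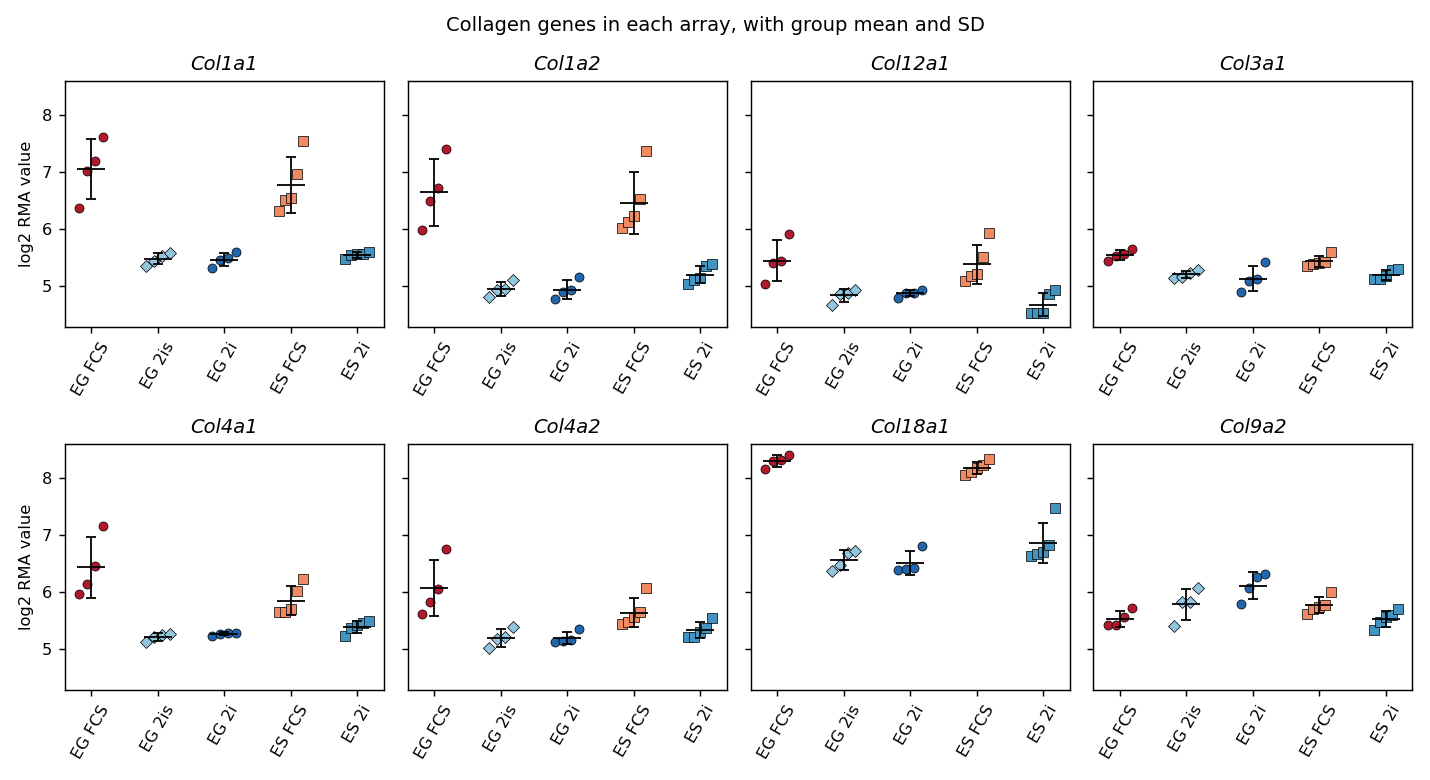
Log2 RMA value (vertical axis) of 8 collagen genes in each of the 22 arrays, 1 point per array, sorted by value within each of the 5 groups, with the group mean and its SD as bars. Type I chains spread over more than 1 unit in both FCS groups, Col18a1 sits between 8.05 and 8.40 in all FCS arrays, and Col9a2 is highest in EG 2i.

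Col18a1, the core protein gene of type XVIII collagen, was the collagen with the smallest adjusted p in all 3 culture comparisons. In EG FCS lines 1 to 4 it was at 8.40, 8.30, 8.15 and 8.32, and in ES FCS lines 1 to 5 at 8.11, 8.34, 8.22, 8.05 and 8.18. The FCS arrays of both origins thus lay within a narrow band, unlike those of type I. In EG 2is it was at 6.46, 6.37, 6.72 and 6.68, in EG 2i at 6.39, 6.42, 6.81 and 6.40, and in ES 2i at 6.83, 6.71, 7.48, 6.62 and 6.66. ES 2i line 3 stood above the other 2i arrays and still below every FCS array. Col18a1 fell in each, with differences of −1.90 in EG 2i (SE 0.13, adjusted p = 1.37e-08, 3.74-fold), −1.79 in EG 2is (SE 0.13, adjusted p = 1.13e-08, 3.46-fold) and −1.32 in ES 2i (SE 0.11, adjusted p = 6.58e-08, 2.50-fold). Within ES batches 1 and 2 the differences were −1.46 and −1.23. The EG minus ES difference in its response was −0.58 (95% interval −0.95 to −0.21) and was not called over all genes (adjusted p = 0.101).

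Mouse Col18a1 has more than 1 start in the RefSeq table, and the gene arrays read it as a single value, so the starts are not separated here. The 250 bases before each start are shown because they differ in the letters searched: the first, at chr10:77166531-77166780 on the minus strand, holds GGGCGG in its opposite-strand form at 3 places and CCAAT at 1, while the second, at chr10:77113706-77113955 on the same strand, holds none of the motifs (0 of each).
Col18a1 start 1: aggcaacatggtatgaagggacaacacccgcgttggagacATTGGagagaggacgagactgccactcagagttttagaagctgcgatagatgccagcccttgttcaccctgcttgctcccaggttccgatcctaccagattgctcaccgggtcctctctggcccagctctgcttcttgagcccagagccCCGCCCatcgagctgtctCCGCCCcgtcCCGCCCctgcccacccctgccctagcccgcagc
Col18a1 start 2: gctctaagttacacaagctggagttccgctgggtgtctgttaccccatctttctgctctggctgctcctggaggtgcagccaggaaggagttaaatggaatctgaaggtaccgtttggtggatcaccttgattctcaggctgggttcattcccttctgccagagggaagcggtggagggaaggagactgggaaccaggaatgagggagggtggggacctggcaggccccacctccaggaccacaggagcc

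Col4a1 and Col4a2 encode the chains of the common type IV collagen of basement membranes. Col4a1 was at 6.46, 5.96, 6.14 and 7.16 in EG FCS lines 1 to 4, against 5.12 to 5.26 in EG 2is and 5.23 to 5.29 in EG 2i. In ES FCS lines 1 to 5 it was at 6.23, 6.01, 5.70, 5.65 and 5.65, and in ES 2i at 5.46, 5.22, 5.49, 5.37 and 5.41. EG FCS line 4 was highest, the groups of each origin did not overlap, and the ES FCS arrays of batch 2 lay close above the 2i arrays. Col4a1 fell in all 3 comparisons, with differences of −1.19 in EG 2i (SE 0.18, adjusted p = 7.91e-05, 2.28-fold), −1.23 in EG 2is (SE 0.17, adjusted p = 2.97e-05) and −0.46 in ES 2i (SE 0.15, adjusted p = 0.0283, 1.37-fold). The ES call was lost without ES FCS line 1 or 2 or ES 2i line 1 or 2, with adjusted p of 0.0641 to 0.0992. Within ES batch 1 the difference was −0.78 (adjusted p = 0.0676) and within batch 2 −0.25 (SE 0.05, adjusted p = 0.0173).

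Col4a2 was at 6.05, 5.62, 5.82 and 6.75 in EG FCS lines 1 to 4 and at 5.12, 5.14, 5.35 and 5.16 in EG 2i, again highest in line 4 and without overlap. It fell in both EG comparisons, with differences of −0.91 in EG 2i (SE 0.18, adjusted p = 0.000939) and −0.89 in EG 2is (SE 0.17, adjusted p = 0.000706). In ES lines it was at 6.07, 5.65, 5.55, 5.44 and 5.46 in FCS and at 5.36, 5.30, 5.54, 5.21 and 5.21 in 2i, where the groups overlapped and the difference of −0.31 was not called (95% interval −0.63 to 0.01, adjusted p = 0.138). That difference was called when the ES arrays were fitted alone (adjusted p = 0.0195) and with the sample number as a block (0.0466). The EG minus ES difference in response was −0.73 for Col4a1 (95% interval −1.23 to −0.23, adjusted p = 0.124) and −0.60 for Col4a2 (−1.09 to −0.10, adjusted p = 0.212), so neither was shown to differ between the origins. Of the 12 endoderm markers, 4 were lower and 0 higher in EG 2i, and 6 and 0 in EG 2is. In ES 2i, 1 was lower and 1 higher. The shares called were 33.3%, 50% and 16.7%, against 23.9%, 25.6% and 31.6% of all genes. The part of endoderm markers in the type IV values was not tested by these comparisons.

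In the mouse genome the 2 genes lie head to head, and their 300-base promoter windows share 78 bases. The 30 bases around the CCAAT letters of each (capitals, in Col4a1 read on the opposite strand) are shown because both genes fell in the EG comparisons. They lie at chr8:11312954-11312983 on the minus strand for Col4a1 and at chr8:11312761-11312790 on the plus strand for Col4a2 (GRCm38.p6).
Col4a1: tgcttgcccgggATTGGcgagccaaggggc
Col4a2: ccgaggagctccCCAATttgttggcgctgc

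The other type IV chains, Col4a3 to Col4a6, which are restricted to particular basement membranes such as that of the kidney glomerulus, were called in none of the culture comparisons, and their differences lay between −0.10 and 0.05. Col15a1, the close relative of Col18a1, was not called either, at −0.05 in EG 2i (95% interval −0.20 to 0.10), −0.10 in EG 2is and −0.03 in ES 2i (−0.16 to 0.10). Its group means ran from 4.90 to 5.14, just above the rough background mark of 4.88. The intervals of Col15a1 and Col18a1 in the same comparison did not meet.

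Among the other collagens, Col12a1 showed the largest fall. It encodes type XII collagen, which attaches to the surface of type I fibrils. Col12a1 was at 5.41, 5.03, 5.44 and 5.92 in EG FCS lines 1 to 4 and at 5.94, 5.09, 5.51, 5.21 and 5.18 in ES FCS lines 1 to 5. In 2i it was at 4.88, 4.88, 4.80 and 4.94 in EG lines and at 4.93, 4.86, 4.53, 4.53 and 4.53 in ES lines. Its means of 4.875 in EG 2i, 4.84 in EG 2is and 4.675 in ES 2i lay at or below the rough background mark of 4.88. FCS and 2i arrays did not overlap in either origin, and the FCS arrays that were highest for Col1a1 were also highest here. Col12a1 fell in all 3 comparisons, with differences of −0.62 in EG 2i (SE 0.16, adjusted p = 0.00807), −0.63 in EG 2is (SE 0.16, adjusted p = 0.00477) and −0.71 in ES 2i (SE 0.14, adjusted p = 0.000486). The call was lost when only the EG 2i and EG FCS arrays were fitted (adjusted p = 0.0786) and within ES batch 1 (−0.62, adjusted p = 0.128), and held within ES batch 2 (−0.77, adjusted p = 0.00114).

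Type VI collagen forms beaded microfilaments around many cells, and its 3 main chains were lower by small amounts. Col6a1 was lower in EG 2i (−0.33) and ES 2i (−0.34). Col6a2 was lower in EG 2i, EG 2is and ES 2i (−0.31, −0.45 and −0.27), as was Col6a3 (−0.30, −0.33 and −0.34), each passing the test. Col6a1 in EG 2is, at −0.29, was not called (adjusted p = 0.0521). In EG 2i, Col6a1, Col6a2 and Col6a3 all lost the call when only the EG 2i and EG FCS arrays were fitted (adjusted p = 0.141, 0.0508 and 0.074) and with the sample number as a block (0.228, 0.0528 and 0.211). Within ES batch 1 all 3 lost it too, at −0.12 for Col6a1 (adjusted p = 0.65), −0.05 for Col6a2 (0.864) and −0.18 for Col6a3 (0.313), and Col6a2 also under the block in ES lines (0.0848). Leaving out 1 array, the EG 2i call was lost for Col6a1 without lines 3 or 4 of the FCS group or any of lines 2 to 4 of the 2i group, for Col6a2 without line 1 or 4 of either group, and for Col6a3 without EG FCS line 1 or EG 2i line 2. In ES 2i, Col6a2 lost its call without ES FCS line 3 or 4 or ES 2i line 3. Col6a3 in EG 2is kept its call under all 19 alternatives. Col6a4 and Col6a6 were not called. The 2 probe sets of Col6a5 disagreed: the one used, with the higher mean, was not called in EG 2i (0.09, adjusted p = 0.365) or ES 2i (−0.09, adjusted p = 0.291). The second was lower in EG 2i (−0.89, adjusted p = 0.00428), EG 2is (−0.93, adjusted p = 0.00193) and ES 2i (−0.56, adjusted p = 0.022), a test added after the data were seen. Its FCS arrays ran from 4.99 to 5.89 in EG and from 4.78 to 5.74 in ES lines, so the value of Col6a5 depends on which probe set is read. Why the 2 differ was not tested.

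Col8a1, a short-chain collagen of vessel walls and the corneal membrane, fell by 0.37 in ES 2i (SE 0.12, adjusted p = 0.0168) with overlapping groups. Its ES 2i mean of 4.56 lay below the rough background mark of 4.88. Col16a1 fell by 0.17 in EG 2is (adjusted p = 0.0263). The genes called higher were few. Col10a1, the collagen of hypertrophic cartilage, rose by 0.30 (adjusted p = 0.00565) and Col20a1 by 0.19 (adjusted p = 0.0407) in EG 2i, and Col17a1, a transmembrane collagen of hemidesmosomes, rose by 0.20 in ES 2i (adjusted p = 0.00983). Col10a1 lost its call when only the EG 2i and EG FCS arrays were fitted (adjusted p = 0.0691) and with the sample number as a block (0.206). Col20a1 lost it under 13 of 19 alternatives, these included (0.104 and 0.167), as well as without lines 1 or 4 of EG FCS or any of lines 1, 2 and 4 of EG 2i, and Col17a1 within each ES batch (0.0965 and 0.0885). Col16a1 lost its call under 5 of 19 alternatives, among them leaving out EG FCS line 1 or EG 2is line 3 or 4, and Col8a1 within ES batch 1 (0.329) and without ES FCS line 1.

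Col9a2, a chain of the cartilage collagen type IX, which decorates type II fibrils, was the only collagen called between EG and ES lines. It was at 5.57, 5.42, 5.42 and 5.71 in EG FCS lines 1 to 4, at 5.83, 6.07, 5.41 and 5.82 in EG 2is and at 6.31, 5.79, 6.07 and 6.26 in EG 2i. In ES lines 1 to 5 it was at 5.9999, 5.70, 5.76, 5.74 and 5.62 in FCS and at 5.32, 5.70, 5.46, 5.60 and 5.56 in 2i. EG 2i arrays stood above all EG FCS and all ES 2i arrays, while EG 2is overlapped EG FCS. Col9a2 rose by 0.63 in EG 2i (SE 0.13, adjusted p = 0.00158, 1.55-fold). Neither EG 2is (0.28, adjusted p = 0.126) nor ES 2i (−0.24, 95% interval −0.48 to 0.00, adjusted p = 0.124) passed the test against its FCS group.

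The response of Col9a2 to 2i differed between EG and ES lines by 0.87 (SE 0.17, 95% interval 0.50 to 1.23, adjusted p = 0.0184), and it was the 1 collagen called among 44, where 1.44% of all genes were called. This call was lost with batch 1 arrays alone, where the difference was 0.99 (adjusted p = 0.251), and without ES FCS line 2 a second collagen was called as well (2 in all). Between EG 2i and ES 2i, Col9a2 was higher in EG by 0.57 (SE 0.14, adjusted p = 0.0296), again 1 of 44 where 3.72% of all genes were called. That call was lost without EG 2i line 1, 3 or 4 or ES 2i line 1 or 2, with adjusted p of 0.052 to 0.156, and with batch 1 arrays alone, where the difference was 0.63 (0.0979). All EG arrays are in batch 1, so the batch term rests on the ES lines, and a batch difference there cannot be told apart from a difference between those lines.

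Elsewhere the origin of the lines left no called difference. In FCS, 0 of 44 collagens differed between EG and ES lines by limma, where 0.01% of all genes were called, and 5 had an unadjusted p under 0.05. Among these 5, Col4a1 was higher in EG by 0.48 (95% interval 0.08 to 0.88, adjusted p = 0.998) and Col9a2 differed by −0.30 (adjusted p = 0.999). Between EG 2is and ES 2i 0 were called, 0 had an unadjusted p under 0.05, and 0.0451% of all genes were called. Between EG 2i and EG 2is 0 collagens were called by limma and 3 had an unadjusted p under 0.05 (Col6a5, Col9a2 and Col23a1), where 0% of all genes were called. Col1a1 differed there by −0.05 (95% interval −0.51 to 0.41), Col4a1 by 0.04 (−0.33 to 0.41) and Col18a1 by −0.11 (−0.38 to 0.16).

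The FCS arrays differed among themselves in feeder marker level, so each collagen could be set against that level without a change of culture. In the 9 FCS arrays, with cell origin as a term, each gene was fitted on the mean of the 19 feeder markers, none of which is a collagen. Of the 44 collagens, 5 rose and 1 fell with the feeder level, where 1.37% of all genes rose, 0.843% fell and 2.21% did either. Col1a2 rose by 2.33 log2 units per unit of feeder level (SE 0.28, adjusted p = 0.00383), Col1a1 by 2.13 (SE 0.22, adjusted p = 0.00134) and Col12a1 by 1.48 (SE 0.19, adjusted p = 0.00458). These 3 calls held under all 13 alternatives tried for them, including leaving out each FCS array. The other slopes called were smaller, Col8a1 at 1.01 (adjusted p = 0.0426), Col5a2 at 0.60 (adjusted p = 0.0475) and Col6a4 at −0.61 (adjusted p = 0.0411). Without EG FCS line 2, 3 or 4, or ES FCS line 1, 4 or 5, only 3 collagens were called, and Col8a1 reached an adjusted p of 0.176.

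No rise with the feeder level was called for Col18a1 in the same arrays, with a slope of −0.16 (SE 0.18, 95% interval −0.56 to 0.24, adjusted p = 0.709). The slope of Col1a1 exceeded that of Col18a1 by 2.28 (SE 0.23, adjusted p = 0.00128). The slope of Col1a2 exceeded that of Col18a1 by 2.49 (SE 0.30, adjusted p = 0.00341). In all, 4 gene pairs were compared, added after the data were seen, with p adjusted together with all genes. Between type I and type IV the difference of slopes was not called after this adjustment. It was 1.01 for Col1a1 against Col4a1 (95% interval 0.14 to 1.87, adjusted p = 0.213). For Col1a2 against Col4a1 it was 1.21 (0.47 to 1.95, adjusted p = 0.0944). Both intervals were positive throughout. Col4a1 itself had a slope of 1.12 (95% interval 0.17 to 2.07, adjusted p = 0.205) and Col4a2 of 1.24 (0.46 to 2.02, adjusted p = 0.103). Col3a1 had a slope of 0.07 (−0.31 to 0.45, adjusted p = 0.873). The feeder level of EG FCS line 4, which was highest for both type IV chains, was also the highest of the FCS arrays, at 6.39.

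**Figure D3:**
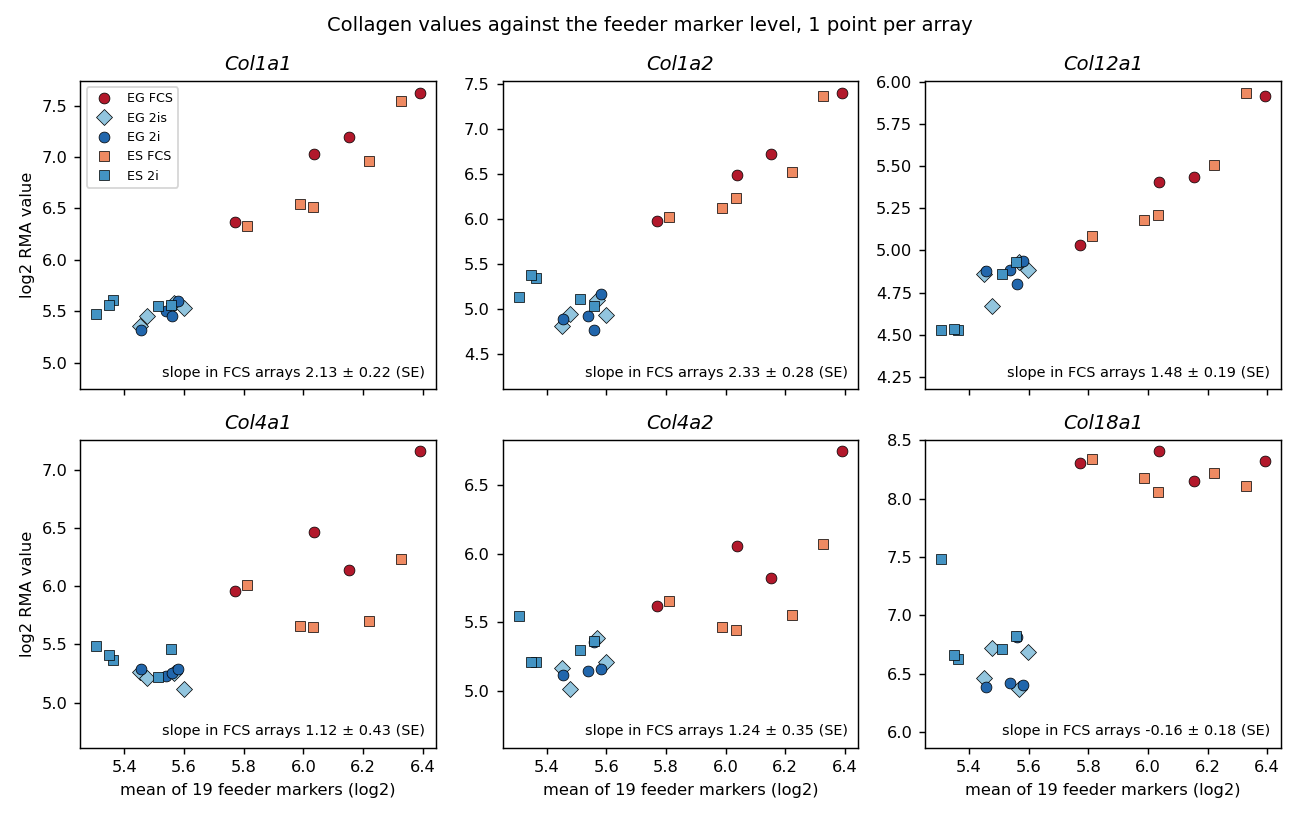
Log2 RMA value of 6 collagen genes (vertical axis, its own range in each panel) against the mean of 19 feeder markers (horizontal axis, log2) in the 22 arrays, with the slope over the 9 FCS arrays in each panel. Col1a1, Col1a2 and Col12a1 climb with the feeder level among FCS arrays (slopes 2.13, 2.33 and 1.48), while Col18a1 stays at 8.05 to 8.40 over the same range.

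In the 13 arrays of the 2i and 2is groups the same slope was called for 0 collagens by limma, where 0% of all genes were called, and for 2 at an unadjusted p under 0.05, Col12a1 at 1.41 (95% interval 0.59 to 2.22) and Col8a1 at 1.25 (0.35 to 2.15). Col12a1 and Col8a1 had means at or below the rough background mark of 4.88 in the 2i and 2is groups. The intervals in these arrays were wide, −2.65 to 1.28 for Col18a1, as the feeder level ran only from 5.31 to 5.60. A slope on the endoderm level (the 10 markers other than Lama1 and Lamb1), added after the data were seen, was called for 0 of 44 collagens in the FCS arrays, where 0.01% of all genes were called, and 3 had an unadjusted p under 0.05. Col4a1 had a slope of 1.69 per unit of endoderm level (SE 0.27, adjusted p = 0.256), Col4a2 of 1.51 (SE 0.30, adjusted p = 0.59) and Col18a1 of 0.23 (SE 0.19). Slopes in the fibrillar class reached 1.41. EG FCS line 4 had the highest endoderm level too, 6.23 against 5.20 to 5.79 in the other FCS arrays. With both levels in 1 fit over the 9 FCS arrays, also added after the data were seen, Col4a1 had a slope of 0.60 on the feeder level (95% interval 0.15 to 1.05, adjusted p = 0.192) and 1.45 on the endoderm level (0.98 to 1.92, adjusted p = 0.252). Col4a2 had slopes of 0.82 (0.43 to 1.21, adjusted p = 0.0604) and 1.18 (0.77 to 1.60, adjusted p = 0.307). None of these 4 slopes was called over all genes, where 1.18% of all genes were called for the feeder level and 0.015% for the endoderm level. Without EG FCS line 4 the slopes of Col4a1 were 0.68 and 1.63 and those of Col4a2 0.90 and 1.37, again with no call. Endoderm slopes were not confined to type IV there, with 1.21 for Col1a2 (95% interval 0.32 to 2.11), 0.895 for Col1a1 (0.24 to 1.55) and 0.795 for Col12a1 (0.20 to 1.39). These were not called either. With all 9 FCS arrays, the feeder slope of Col1a1 in the joint fit was 2.06 (adjusted p = 0.00504), and that of Col18a1 −0.28 (adjusted p = 0.496).

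The enzymes that modify collagen did not move in one direction. Of 17 measured genes for hydroxylation, folding and export (of 18 listed), 1 was higher and 5 lower in EG 2i, 3 and 3 in EG 2is, and 4 and 5 in ES 2i. The shares called in either direction were 35.3%, 35.3% and 52.9%, against 23.9%, 25.6% and 31.6% of all genes. The median differences were −0.17, −0.04 and −0.10, against 0.01, −0.01 and 0 over all genes, and these shares and medians of all genes also apply to the lists that follow. P3h1, a prolyl 3-hydroxylase, rose by 0.47, 0.77 and 0.77 (adjusted p = 0.000591, 1.76e-06 and 2.64e-07). Colgalt1, which adds galactose to hydroxylysine, rose by 0.53 in EG 2is and 0.69 in ES 2i. P4ha3, a prolyl 4-hydroxylase subunit, fell (−0.32, −0.41 and −0.43), as did P3h4, a partner of lysyl hydroxylation (−0.58, −0.48 and −0.46). Serpinh1, the collagen chaperone HSP47, was not called, at 0.39, 0.36 and 0.17.

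Genes that trim and cross-link collagen were lower where they were called. Of 12 measured (of 14 listed), 3, 4 and 5 were lower and 0 higher in EG 2i, EG 2is and ES 2i, or 25%, 33.3% and 41.7% called (median differences −0.25, −0.24 and −0.10). Lox, the lysyl oxidase that cross-links fibrils, fell (−1.89, −1.87 and −2.001), as did Pxdn, the peroxidase that forms the sulfilimine bonds of type IV collagen (−1.33, −1.40 and −1.90, adjusted p = 1.73e-06, 4.58e-07 and 1.4e-09). Bmp1, the protease that removes the carboxy-terminal propeptide, fell too (−0.46, −0.53 and −0.86), and Loxl1, another lysyl oxidase, fell in EG 2is (−0.36) and ES 2i (−0.50).

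Of 9 measured collagen receptors (of 10 listed), 1 was higher and 3 lower in EG 2i, 0 and 3 in EG 2is, and 1 and 5 in ES 2i. These were 44.4%, 33.3% and 66.7% of the list, with median differences of −0.12, −0.09 and −0.18, and the share in EG 2is lay near the 25.6% of all genes. The discoidin domain receptors moved in opposite directions: Ddr1 fell (−1.26, −1.15 and −1.01, adjusted p = 2.63e-08, 2.45e-08 and 1.82e-08), while Ddr2 rose by 0.93 in EG 2i and 0.53 in ES 2i. The integrin subunits Itga1 and Itgb1, which together form a collagen receptor, both fell (−0.80, −0.70 and −1.11 for Itga1, −0.65, −0.40 and −0.55 for Itgb1). Mrc2, an endocytic collagen receptor, fell by 0.43 in ES 2i.

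Of 11 collagen-degrading proteases and inhibitors, 4, 5 and 6 were lower, and 0, 0 and 1 higher, or 36.4%, 45.5% and 63.6% called (median differences −0.18, −0.20 and −0.37). Mmp14, a membrane-bound collagenase, fell (−1.25, −1.35 and −1.24), as did Timp2, its partner and inhibitor (−1.21, −1.27 and −1.73). Timp3 fell in EG 2is (−1.07) and ES 2i (−1.74). Mmp13, an interstitial collagenase, fell in all 3 (−0.56, −0.42 and −0.37). The gene called higher was the inhibitor Timp1, by 0.53 in ES 2i, which also stands in the feeder list.

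Of the 9 basement membrane partners, 1 was higher and 2 lower in EG 2i and in EG 2is, and 4 were higher and 1 lower in ES 2i. The share called, 33.3% in both EG comparisons, lay near the 23.9% and 25.6% of all genes, and in ES 2i it was 55.6% (median differences −0.29, −0.15 and 0.41). Lamb1, a laminin chain, fell (−2.80, −2.59 and −1.93, adjusted p = 1.13e-07, 1.17e-07 and 5.18e-07), and Hspg2, perlecan, fell in EG 2i (−1.44) and EG 2is (−1.02). Nid1, nidogen, which links laminin to type IV collagen, rose by 1.19, 1.75 and 1.67 while Col4a1 fell. Lamc1 rose by 0.52 in ES 2i, and Lama1, which stands in the endoderm list with Lamb1, by 0.89. Of the 9 measured fibril-binding genes (of 10 listed), 5, 4 and 5 were lower and 0, 1 and 2 higher, or 55.6%, 55.6% and 77.8% called (median differences −0.43, −0.24 and −0.80). Thbs1, thrombospondin, fell in all 3 (−4.25, −4.37 and −4.28), as did Bgn, the small proteoglycan biglycan (−2.47, −2.54 and −3.03), and Thbs2 (−0.89, −0.82 and −1.25), while Fn1, fibronectin, rose by 0.60 in EG 2is and 0.36 in ES 2i.

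**Figure D4:**
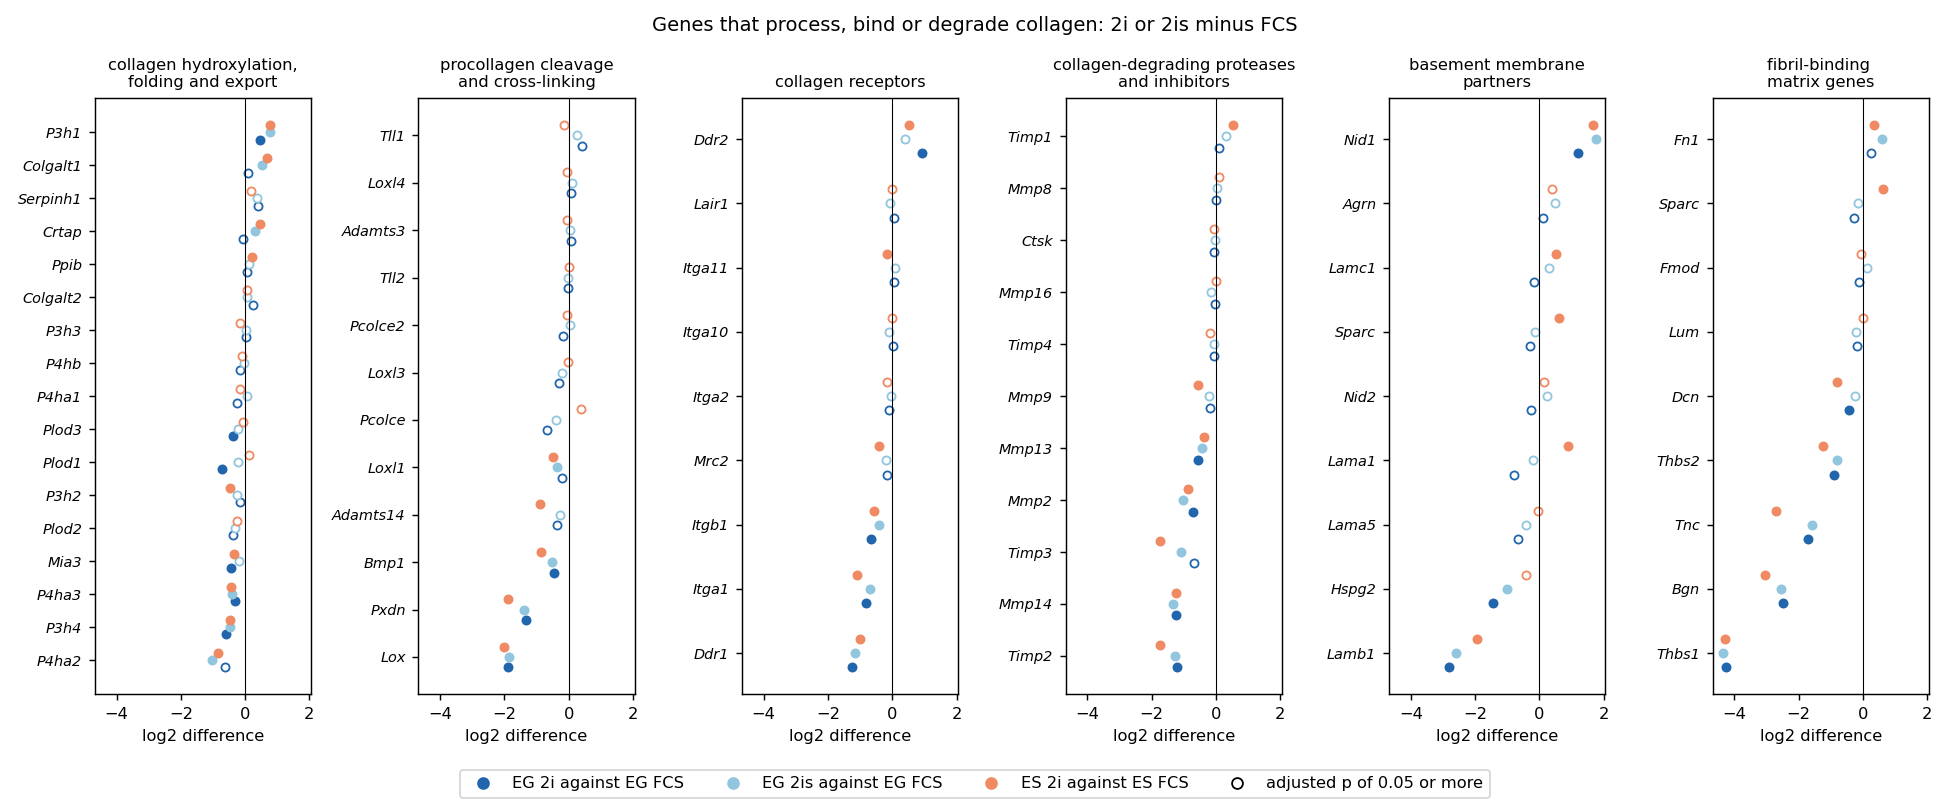
Log2 difference (horizontal axis, 2i or 2is minus FCS) of the measured genes of 6 lists of collagen-handling and matrix genes, 1 row per gene and 1 point per culture comparison, open where adjusted p was 0.05 or more. Lox, Pxdn, Ddr1, Mmp14, Lamb1, Bgn and Thbs1 lie left of 0 in all 3 comparisons, and P3h1 and Nid1 lie right of it.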

How the data were processed

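RNA of 22 samples was measured, 1 array each. The authors' deposited table holds log2 values, 1 per probe set and array, made with RMA in Affymetrix Expression Console per the submitters' processing notes, which also name limma. Versions, and whether batches were adjusted, are not given in the sources used here. The method subtracts background and normalizes by quantiles, which compresses differences of dim probe sets.

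Of 28853 probe sets, 21789 had 1 gene symbol, 1621 several and 5443 none in the platform annotation. Each gene took its probe set with the highest mean, which left out 1851 and gave 19938 genes. RefSeq's table of GRCm38.p6 updated 0 symbols. limma 3.58.1 in R 4.3.3 (lmFit, eBayes, two-sided, Benjamini-Hochberg over all genes) was fitted over all 22 arrays with group, batch and sex. Batch 1 held 16 arrays with all EG lines and batch 2 held 6, all ES lines. Results given within ES batch 1 come from fits over all 16 batch 1 arrays. Slopes were fitted in the 9 FCS arrays (term: cell origin) and the 13 others (term: group). All adjusted p values are limma's, and intervals are 95%. The scripts were checked on simulated data. The number of arrays limits the precision.

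The members and gene lists were chosen with earlier results of these data known. Named were Col1a1, Col1a2, Col3a1, Col5a1, Col5a2, Col4a1, Col4a2, Col15a1 and Col18a1, the 8 largest called changes without overlap per culture comparison, up to 4 called members elsewhere, and up to 3 per list by adjusted p. Serpinh1, Lama1, Timp1, Pdgfrb, the remaining called collagens and the second probe set of Col6a5 were named after their values were seen. Alternatives covered normalization, dim genes, covariates, arrays fitted, the variance prior, probe sets, batches, a replicate block and leaving out each array. Same-numbered samples did not deviate together (0 of 4 group pairs had every correlation over 0.1), so the numbers were not used as pairs, although same-numbered ES samples share their labelled sex and batch.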

Additional observations from a re-analysis of the deposited data

Results flagged for a closer look

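Among 70 groups of 4 or 5 arrays of the named collagens, 3 held an array whose gap to its nearest neighbour was large for the group's range by Dixon's criterion, which chance exceeds in about 1 of 20 groups. Col18a1 in EG 2i line 3 was at 6.81, against 6.42 in the next array, and in ES 2i line 3 at 7.48, against 6.83 in the next. Col15a1 in EG 2is line 2 was at 5.08, against 5.00 in the next.

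The response of Col9a2 to 2i differed between EG and ES lines by 0.87 (limma, adjusted p = 0.0184). It was higher in EG 2i than in EG FCS in all arrays and lower on average, without a call, in ES 2i.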

How the results depend on the processing

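Of 39 results on named collagens, 26 kept their direction and side of the threshold under all their alternatives. Over 759 such alternatives 719 kept both, 38 lost the call, 2 gained it and 0 reversed. For EG 2i against FCS (14 collagens called), fitting those arrays alone gave 6. For ES 2i against FCS (14), batch 1 arrays alone gave 3 and batch 2 arrays alone 12. Col9a2 as the 1 collagen called between EG 2i and ES 2i gave 0 when those groups were fitted alone and 0 with batch 1 arrays alone, and as the 1 collagen with a different response gave 0 with batch 1 arrays alone. Each of these fits used fewer samples, and why the counts moved was not tested. Leaving out 1 array at a time gave 11 to 14 collagens for EG 2i, 10 to 14 for EG 2is (12 with all arrays) and 11 to 14 for ES 2i against FCS, 0 to 1 for EG 2i against ES 2i, 1 to 2 for the difference in response and 3 to 7 for the slope on the feeder level (6 with all arrays).

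With the sample number as a replicate block, 7 collagens were called for EG 2i against FCS, 11 for EG 2is and 13 for ES 2i. The EG numbers are shared only as numbers. Same-numbered ES samples in FCS and 2i also carry the same sex and batch labels, and whether they are the same line is not stated. Same-numbered samples correlated in their deviations at −0.13 to 0.07 for EG 2i with FCS and −0.01 to 0.24 for ES. Under the block Col3a1 (adjusted p = 0.188) and Col5a2 (0.0767) lost their calls in EG 2i, as did Col5a2 in ES 2i (0.0612), and Col4a2 gained one in ES 2i (0.0466).

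Dim signal limits the smaller differences: the mean of 1 of the 44 collagens lay below 4.88, the highest female value of Eif2s3y, in all groups and of 6 in some. Over all arrays, 23.7% of all genes had a mean below that value. Only 6 of the 44 collagens had a group mean above 6.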
